A study of Mus musculus with 112 samples.

Results

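Spindle metastases were compared with squamous cell carcinoma (SCC) metastases of chemically induced mouse skin tumours. Every metastasis array labelled spindle or SCC was taken, from both genotypes and all sites, which gave 44 of the 112 arrays of the series: 20 spindle arrays from 7 mice and 24 SCC arrays from 11 mice. The arrays measured RNA from the resected tissue on Affymetrix whole-transcript arrays, and the values are log2 intensities. Of the 15 mice, 3 had metastases of both histologies, so the comparison held 18 mouse profiles.

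All mice were males of a backcross in which hybrids of Mus spretus and the inbred strain FVB were mated to FVB. When 8 weeks old, each was given a single 25 mg dose of DMBA, a mutagen, and afterwards TPA, a tumour promoter, 2 times per week. Primary tumours larger than 1 cm were resected, and metastases were taken at sacrifice. The 9 wild-type (WT) mice and the 6 mice labelled HrasKO had the same treatment. Spindle metastases came from 3 WT mice (10 arrays) and 4 HrasKO mice (10 arrays). SCC metastases came from 8 WT mice (18 arrays) and 3 HrasKO mice (6 arrays). The 1 metastasis of mixed histology was not used in any comparison. Hras was not analysed here, so the knockout was not checked on its target.

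Spindle carcinoma is the poorly differentiated form of squamous skin cancer, in which the tumour cells lose keratinocyte junctions and take on an elongated, fibroblast-like shape. The switch is a model of epithelial to mesenchymal transition (EMT), a programme in which transcription factors of the Snail, Zeb and Twist families repress junction genes. Epithelial identity is held in turn by splicing regulators, grainyhead and Ovol factors, p63 and the microRNAs of the miR-200 family and miR-205, which target Zeb transcripts.

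The mature forms of those microRNAs show why they are treated as families. They are given 5′ to 3′ from RefSeq (GRCm38.p6), with the seed, bases 2 to 8, in capitals.
miR-200a-3p: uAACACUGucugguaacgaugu
miR-141-3p: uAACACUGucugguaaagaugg
miR-200b-3p: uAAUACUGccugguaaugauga
miR-200c-3p: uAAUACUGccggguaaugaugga
miR-205-5p: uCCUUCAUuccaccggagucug
miR-200a-3p and miR-141-3p share one seed, and miR-200b-3p and miR-200c-3p share another. The array reads the transcript of each microRNA gene and not a mature arm, so the values below belong to the genes Mir200a, Mir141, Mir200b, Mir200c and Mir205. These genes were named after their values had been seen.

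Not all metastases had the level of epithelial transcripts that their label gives in the primary tumours. The mean log2 intensity of 17 epithelial identity regulators was 8.57 to 9.97 in the 10 primary carcinomas labelled SCC (median 9.57) and 5.58 to 9.66 in the 12 labelled spindle (median 6.06). All 10 SCC carcinomas came from WT mice, and the spindle carcinomas from both genotypes. The midpoint of the SCC and spindle carcinoma medians was 7.82. All 20 spindle metastases lay below it, at 5.21 to 7.14 (median 5.81). SCC metastases fell into separate ranges: 17 of 24 arrays lay at 8.43 to 9.44, while 7 arrays from 5 mice lay below the midpoint at 5.51 to 7.75. Those 7 included 5 of the 6 HrasKO SCC arrays (all 3 lymph node arrays of mouse 1706 and the lung arrays of mice 1616 and 1664) and 2 of the 18 WT arrays (the liver array of mouse 1383 and the lung array of mouse 1949). None of these HrasKO mice had a primary carcinoma labelled SCC: those of mice 1706 and 1616 were labelled mixed and those of mouse 1664 spindle. Markers of the host organs differed among these 7. The mean of 9 B-cell markers was 10.7 in the lung array of mouse 1616 and 10.3 and 9.87 in 2 lymph node arrays of mouse 1706, against 4.73 to 8.71 in the other 17 SCC arrays. High values also occurred in spindle metastases, at 9.91 in the lung array of mouse 1509 and 9.73 in the liver and spleen arrays of mouse 1815. Liver markers were at 11.3 in the liver array of mouse 1383, and lung markers at 9.65 and 9.60 in the lung arrays of mice 1616 and 1664. In the third lymph node array of mouse 1706 B-cell markers were at 6.50, and in the lung array of mouse 1949 lung markers were at 4.57. The mean of the 12 EMT factors had a median of 7.93 (7.51 to 9.37) in the 7 arrays and 8.39 (7.82 to 8.94) in the other 17. In spindle metastases it was 9.02 (7.18 to 9.36), a range that held low values as well. The part of host tissue in the low epithelial level was not tested. They are called SCC below, as labelled, and results are also given without them. Their removal uses the measured level, so values without them are descriptions and not tests.

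**Figure D1:**
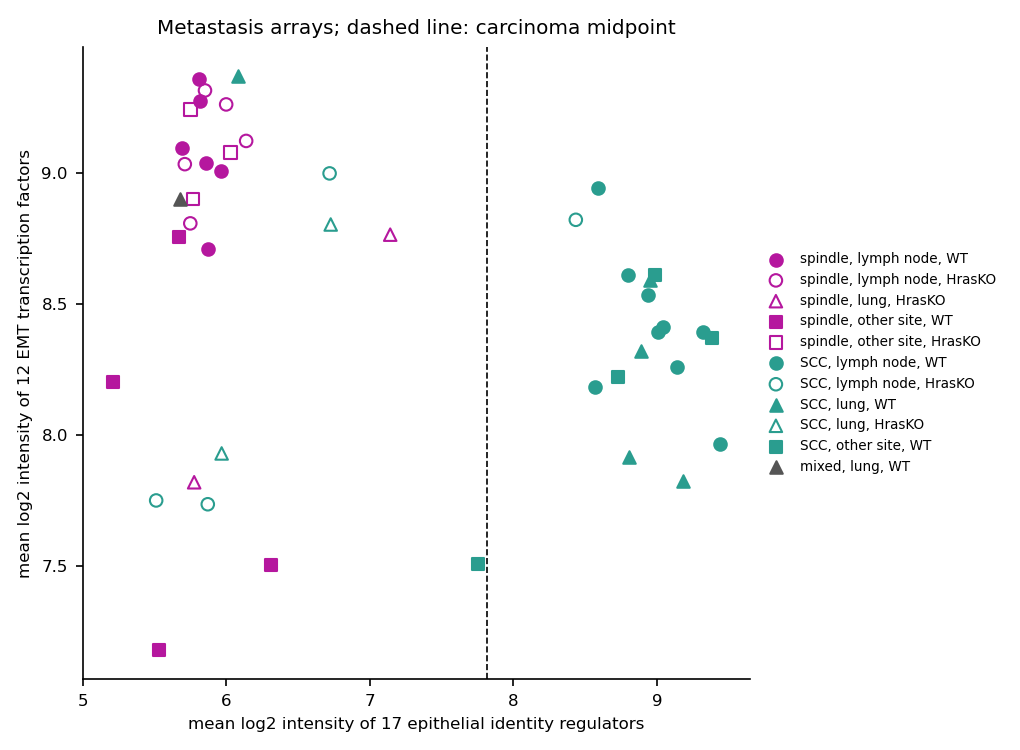
Each point is 1 metastasis array; the x axis is the mean log2 intensity of the 17 measured epithelial identity regulators and the y axis that of the 12 EMT transcription factors. Colour gives the labelled histology, shape the site, filled symbols WT and open symbols HrasKO mice; the 20 spindle arrays lie left of the dashed carcinoma midpoint at 7.82, with 7 of the 24 SCC arrays.

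Site differed between the histologies as well. Lymph node gave 11 spindle arrays (6 mice) and 13 SCC arrays (8 mice), whereas lung gave 2 spindle and 7 SCC arrays. The summed level of 12 lung markers, taken as their mean log2 intensity, was 4.34 to 4.79 in spindle and 4.54 to 5.31 in SCC lymph node arrays, and reached 10.7 in spindle and 10.2 in SCC lung arrays. Of those 12 genes 0 passed the test over all sites, with a median log2 difference of -1.49, against -0.04 in lymph node alone. Liver markers reached 9.15 in a spindle and 11.3 in an SCC liver array. In these bulk samples fewer cells of a type and less RNA per cell cannot be told apart. The number of mice limits the precision of every value.

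Over all sites, with genotype as a covariate and mouse as a random block in limma, 8 genes were higher and 5 were lower in spindle than in SCC metastases. These 13 were 0.0693% of the 18772 genes tested (0.0426% higher and 0.0266% lower), and their adjusted p lay between 0.0461 and 0.0494. At an unadjusted p under 0.05 there were 3378 genes. All gene-wise tests below are two-sided, and p was adjusted over all genes by the Benjamini-Hochberg method with a threshold of 0.05. The call of these genes rested on single mice. With any of mice 1383, 1407, 1456, 1616, 1664, 1717 or 1984 left out 0 genes passed, and without mouse 1509, whose only array is from lung, 412 did. That array had B-cell markers at 9.91 and lung markers at 6.91, and the part of either in the count was not tested. Without lung metastases 1705 genes passed. With no mouse block, with mouse as a fixed block, or with batch as a covariate, 0 genes passed.

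The 5 genes that fell encode adhesion proteins and a regulator of ion transport. Mpzl2, an immunoglobulin-type adhesion molecule of epithelia, was at 4.48, 5.72 and 6.52 (lowest, median and highest of 7 spindle mouse means) against 6.22, 10.52 and 11.05 in the 11 SCC mice. It fell by 3.64 on the log2 scale (SE 0.623, adjusted p = 0.0461). Ptprf, a receptor tyrosine phosphatase of cell contacts, was at 5.84, 6.57 and 7.76 in spindle and at 6.70, 10.56 and 10.85 in SCC mice, a fall by 3.02 (SE 0.522). In both genes the groups overlapped only at the low end of the SCC range. Bcam, a laminin receptor, fell by 2.66 (SE 0.422) and Chl1, a neural-type adhesion molecule, fell by 1.46 (SE 0.250). Ahcyl2, a homologue of a protein that regulates ion transporters, fell by 0.83 (SE 0.138), and its 7 spindle mouse means, at 9.07 to 9.39, all lay under the SCC range of 9.45 to 10.56.

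The 8 genes that rose changed less. Cpne7, a calcium-dependent membrane-binding copine, rose by 1.12 (SE 0.194) and Depdc1a, a mitotic protein, by 1.03 (SE 0.173). Abhd8, a hydrolase-domain protein, lay at 6.94, 7.11 and 7.80 in spindle mice and at 6.11, 6.42 and 6.92 in SCC mice, a rise of 0.73 (SE 0.131) without overlap. Ptpa, an activator of protein phosphatase 2A, lay at 9.27, 9.45 and 9.55 against 8.89, 9.06 and 9.15, a rise of 0.42 (SE 0.0635), also without overlap. The others were genes of the endoplasmic reticulum: the ubiquitin ligase Rnf26 (0.56, SE 0.101), Ncln (0.45, SE 0.0743), the membrane chaperone Wdr83os (0.39, SE 0.0639) and the torsin ATPase Tor1b (0.34, SE 0.0601). Mouse values of the groups did not overlap in Ncln, Wdr83os and Tor1b. Over all genes 23 did not overlap, which is 0.123% (0.0799% higher and 0.0426% lower).

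**Figure D2:**
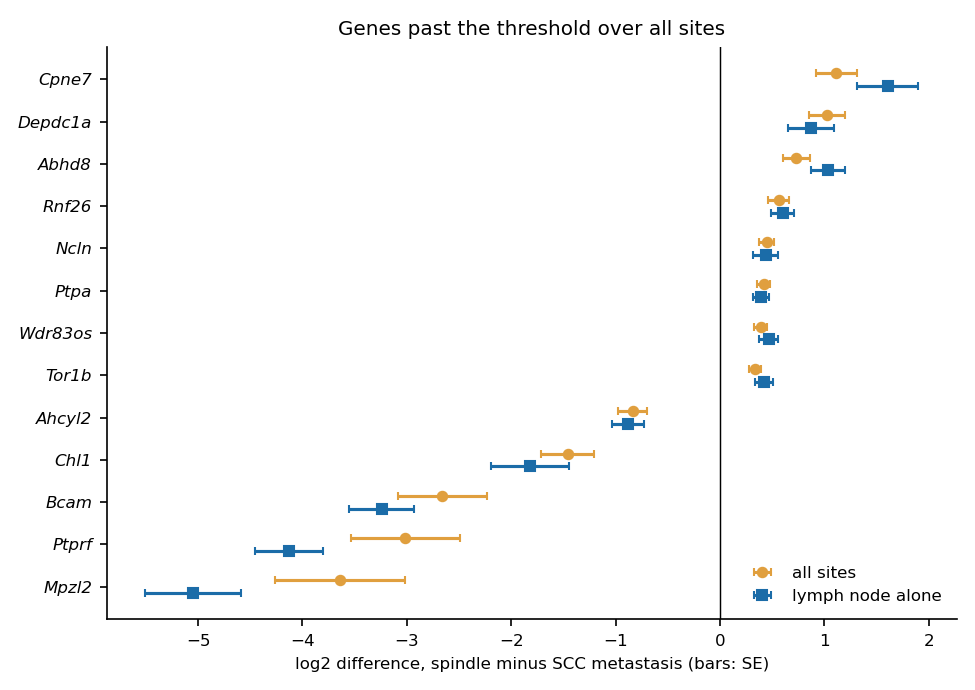
The x axis is the log2 difference, spindle minus SCC metastasis, with its SE as bars, for the 13 genes that passed the threshold over all sites; circles are all sites (7 spindle and 11 SCC mice) and squares lymph node alone (6 and 8 mice). All 13 differences have the same sign in both, from -3.64 (Mpzl2) to 1.12 (Cpne7) over all sites.

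Several epithelial genes missed the threshold narrowly over all sites. Cdh1, the adherens junction protein E-cadherin, had a log2 difference of -2.39 (adjusted p = 0.0514) and Esrp1, a regulator of epithelial splicing, one of -3.72 (adjusted p = 0.0542). Epcam was at -2.93 (adjusted p = 0.0514) and Dsp at -3.60 (adjusted p = 0.0514). Cdh1 and Epcam were outside the naming rule of the all-site comparison. Of the 25 pathway lists and 19 marker lists, 0 had a member that passed. Beside a median of 0.02 over all genes, list medians were -1.98 for the epithelial identity regulators, -1.92 for the desmosome and -1.56 for stratified epithelial keratins. Cell cycle genes had a median of 0.56, and 23 of 23 had a positive difference although 0 passed. Over all genes 10425 of 18772 differences were positive, and genes measured on the same mice are not independent.

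In the 3 mice with both histologies, the SCC array came from lung and the spindle arrays from other sites, so site and histology cannot be told apart there. With mouse as a fixed block, the fit that rests on these 3 pairs, 0 genes passed. Mouse 1984 had the largest differences: its spindle minus SCC difference was -5.84 for Esrp1, -4.13 for Cdh1, -7.67 for the basal keratin Krt5 and 2.42 for Zeb1. In mouse 1664 the difference was -3.25 for Esrp1 and -2.78 for Cdh1, but 0.50 for Krt5 and 0.25 for Zeb1. Mouse 1949 had an SCC-labelled lung array with Esrp1 at 4.54, beside 4.40 in its spindle metastases, a difference of -0.14. Ptpa was higher in the spindle metastases of each, by 0.55, 0.63 and 0.40 in mice 1984, 1664 and 1949.

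**Figure D3:**
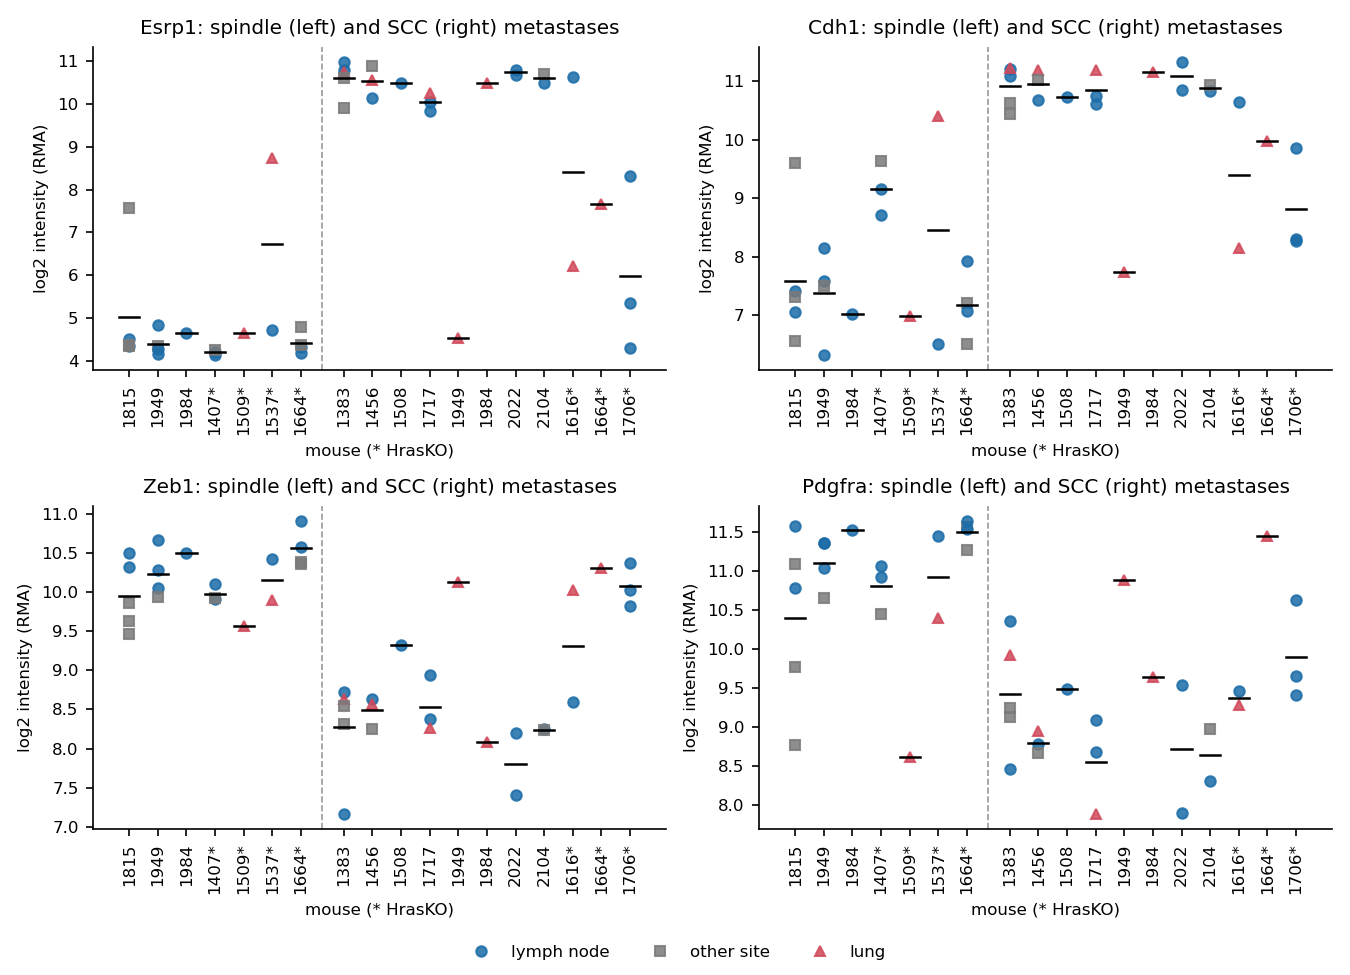
Log2 intensity of Esrp1, Cdh1, Zeb1 and Pdgfra in every array, by mouse, with spindle metastases left and SCC metastases right of the dashed line; symbols give the site, bars the mouse mean and an asterisk HrasKO mice. The low SCC points for Esrp1 belong to mice 1949, 1616, 1664 and 1706, and the high spindle points are non-nodal arrays of mice 1815 and 1537.

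Lymph node metastases were then compared alone, since that site had several mice of each histology and no mouse in both. The 6 spindle mice were 3 WT and 3 HrasKO and the 8 SCC mice were 6 WT and 2 HrasKO. This was one of the alternatives of the all-site comparison and shares its arrays, and its genes were named by the same rule after the all-site count had been seen. In this comparison 1418 genes rose (7.55%) and 795 fell (4.24%), or 11.8% in either direction, with a smallest adjusted p of 1.69e-05. More than 2-fold changes were seen in 514 of the genes that rose and 554 of those that fell. Mouse values did not overlap in 5.73% of all genes (3.94% higher and 1.79% lower). All 13 genes called over all sites were also called here in the same direction. Leaving out 1 mouse gave between 1386 (without mouse 1949) and 2237 calls.

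Epidermal keratins and the genes of keratinocyte differentiation had the largest falls. Krt5, the keratin of basal keratinocytes, was at 4.56, 5.23 and 6.40 in spindle mice and at 9.12, 12.44 and 12.60 in SCC mice. It fell by 6.69 (SE 0.522, adjusted p = 1.69e-05), and every spindle mouse lay below every SCC mouse. Krt14, its partner, fell by 5.82 (SE 0.665, adjusted p = 0.000152). Krt6b and Krt6a, keratins of hyperproliferative epidermis, fell by 6.72 (SE 0.872) and 5.75 (SE 0.626). Of 16 stratified epithelial keratins 9 fell and 0 rose, with a median of -1.88 against 0.02 over all genes, and in 6 of them the mouse values did not overlap.

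The cornified envelope, the protein shell of the outer epidermal layer, had 14 of 28 genes lower and 0 higher, with a median of -2.35. Sprr2d, an envelope precursor, was at 4.44, 4.84 and 5.21 in spindle and at 8.36, 11.80 and 12.71 in SCC mice, and fell by 6.14 (SE 0.595, adjusted p = 6.79e-05). Sprr1a fell by 5.41 (SE 0.528), Lypd3 by 5.66 (SE 0.581) and Dmkn, a secreted protein of differentiating keratinocytes, by 5.61 (SE 0.607). The lowest SCC value of each of these genes still lay above the highest spindle value. Among 22 genes of epidermal defence and protease inhibition 12 fell and 0 rose (median -2.23), with the serpin Serpinb5 falling by 6.47 (SE 0.625) and the kallikreins Klk6 and Klk9 by 4.18 (SE 0.889) and 4.02 (SE 0.747). Trim29, which is expressed in basal epithelia, fell by 5.34 (SE 0.612).

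Many junction genes fell. Of 12 desmosome genes 8 fell and 0 rose (median -2.77). Dsg3, the desmosomal cadherin of lower epidermis, was at 3.74, 3.84 and 4.11 in spindle and at 5.70, 11.04 and 11.57 in SCC mice, and fell by 6.28 (SE 0.720, adjusted p = 0.000153). Dsp, the plaque protein that ties desmosomes to keratin, fell by 4.84 (SE 0.750), and Dsc3 fell by 4.78 (SE 0.387). Of 24 adherens and tight junction genes 12 fell and 0 rose (median -1.66). Cdh1 lay at 6.51, 7.29 and 8.93 in spindle and at 8.81, 10.70 and 11.15 in SCC mice and fell by 3.06 (SE 0.405, adjusted p = 0.000407). Its groups overlapped, between the highest spindle mouse, 1407, and the lowest SCC mouse, 1706. Cdh1 was named as the textbook marker after its values had been seen. The gap junction gene Gjb2 fell by 5.46 (SE 0.517), the claudin Cldn4 by 4.82 (SE 0.551) and the adhesion molecule Epcam by 4.10 (SE 0.483).

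Hemidesmosome genes, which anchor keratinocytes to the basement membrane, were mixed: 3 of 10 fell and 2 rose. Col17a1, the transmembrane collagen of hemidesmosomes, fell by 4.26 (SE 0.504) and the laminin chain Lama3 by 2.83 (SE 0.496). The laminin chain Lamb3 fell by 3.53 (SE 0.851, adjusted p = 0.0161), a call lost without mouse 1949 (adjusted p = 0.0624) or 1984 (adjusted p = 0.0553). The linker Dst rose by 1.00 (SE 0.174). Plec was at 0.52 (SE 0.154, adjusted p = 0.0451), a call lost without any 1 of 10 mice, at most to an adjusted p of 0.127. Simple epithelial keratins did not move together. Krt7 fell by 4.93 (SE 0.603, adjusted p = 0.000246), and Krt23 was at -3.19 (SE 0.812, adjusted p = 0.0211), a call lost without mice 1815, 1949 or 1984. By contrast, Krt8 and Krt18, the keratin pair of simple epithelia, had log2 differences of -0.34 (SE 0.944, adjusted p = 0.871) and 0.04 (SE 0.555, adjusted p = 0.98). Spindle mice ranged from 5.95 to 12.84 in Krt8 and from 8.94 to 11.68 in Krt18. Both were named after their values had been seen.

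Among the 17 regulators of epithelial identity 11 fell and 0 rose, with a median of -2.92. Esrp1 was at 4.17, 4.42 and 4.71 in spindle mice and at 5.99, 10.50 and 10.90 in SCC mice, and fell by 5.20 (SE 0.594, adjusted p = 0.000152) without overlap. Its paralogue Esrp2 fell by 3.46 (SE 0.472). The small GTPase Rab25, which acts in apical recycling, fell by 4.55 (SE 0.568), and Trp63, the p63 gene of stratified epithelia, fell by 4.45 (SE 0.479). Of the grainyhead factors, which open epithelial enhancers, Grhl2 fell by 3.85 (SE 0.496), Grhl3 by 3.31 (SE 0.545) and Grhl1 by 2.92 (SE 0.340). The Ets factors Ehf and Elf3 fell by 4.05 (SE 0.525) and 3.64 (SE 0.664). Ovol1 and Ovol2, zinc finger repressors of mesenchymal genes, fell by 2.59 (SE 0.456) and 1.10 (SE 0.237). Mouse values did not overlap in 7 of the 17 genes.

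The other 6 regulators did not pass. Klf5 was at -1.51 (SE 0.565, adjusted p = 0.108), Tfap2c at -0.89 (SE 0.344, adjusted p = 0.121) and Klf4, a differentiation factor, at -0.45 (SE 0.373, adjusted p = 0.515). Tfap2a, Prdm1 and Pou2f3 had differences of 0.50, 0.03 and -0.00. Tfap2a, an AP-2 factor of ectoderm, was thus at 9.27 to 10.43 in spindle mice that had Esrp1 at 4.17 to 4.71.

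Of the 12 EMT transcription factors 5 rose and 1 fell, with a median of 1.01. Prrx1, a homeobox factor of mesenchyme, was at 11.22, 11.56 and 11.69 in spindle and at 9.29, 9.77 and 10.33 in SCC mice and rose by 1.77 (SE 0.181, adjusted p = 0.000102). Snai1 rose by 1.64 (SE 0.271, adjusted p = 0.00164), with all spindle mice, at 9.31 to 9.96, above all SCC mice, at 6.58 to 8.56. Zeb1 lay at 10.01, 10.42 and 10.74 against 7.81, 8.61 and 10.07 and rose by 1.63 (SE 0.296, adjusted p = 0.00305). The single SCC mouse that reached the spindle range of Zeb1 was 1706. The E-protein gene Tcf4 rose by 0.88 (SE 0.123). Twist1 rose by 1.25 (SE 0.311, adjusted p = 0.0191), a call lost without mouse 1949 (adjusted p = 0.0600).

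Members of the same families went other ways. Snai3 fell by 2.33 (SE 0.368, adjusted p = 0.00124), from 5.35 to 8.18 in SCC mice to 4.62 to 4.87 in spindle mice. Snai2, the Snail factor of basal keratinocytes, had a difference of -0.66 (SE 0.333, adjusted p = 0.254) and was at 8.14 to 9.47 in spindle and 7.68 to 10.29 in SCC mice. Zeb2 was at 0.55 (SE 0.246, adjusted p = 0.188). Twist2 was at 1.25 (SE 0.382, adjusted p = 0.0503), Foxc2 at 1.13 (adjusted p = 0.110), Tcf3 at 0.47 (adjusted p = 0.0802) and Gsc at -0.05 (adjusted p = 0.779).

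Of the 5 microRNA genes 1 passed. Mir205 was at 3.78, 3.96 and 4.28 in spindle and at 4.12, 6.39 and 7.01 in SCC mice and fell by 1.94 (SE 0.346, adjusted p = 0.00279). Mir200b was at 4.55 to 4.66 in spindle and 4.89 to 8.65 in SCC mice, with no overlap, and had a difference of -1.55 (SE 0.524, adjusted p = 0.0740). Mir200a, with the AACACUG seed family shown above, was at -0.89 (adjusted p = 0.156), Mir200c at -0.70 (adjusted p = 0.168) and Mir141 at -0.39 (adjusted p = 0.282). In the lymph nodes of the 6 spindle mice none of these 5 genes was above 4.94, near the low end of the scale, whose lowest value in the series was 2.10.

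Snail and Zeb factors bind the E-box letters CACCTG, and promoters were searched for them on both strands. The Epcam promoter shows them at 187 and 19 bases before the gene's start, written in capitals in the window from 250 bases before to 50 after the start (chr17:87635729-87636028, plus strand, GRCm38.p6, RefSeq). The second match is on the minus strand and reads CAGGTG.
Epcam promoter: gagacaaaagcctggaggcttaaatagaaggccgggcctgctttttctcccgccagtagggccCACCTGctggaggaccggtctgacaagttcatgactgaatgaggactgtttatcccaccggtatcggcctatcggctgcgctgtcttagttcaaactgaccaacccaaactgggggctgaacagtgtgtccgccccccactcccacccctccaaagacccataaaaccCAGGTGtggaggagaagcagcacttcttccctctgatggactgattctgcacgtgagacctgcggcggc
Of 32851 promoters of this length 20.2% held at least 1 match, so a match is common. Epcam itself was at 4.62, 5.10 and 5.82 in spindle and at 6.49, 9.92 and 10.19 in SCC lymph node mice. Promoters of Cdh1, Esrp1, Ovol1 and Mpzl2 were absent from the set of promoters and were not searched. Promoters of Ptprf, Bcam, Chl1 and Ahcyl2, looked at because these genes fell over all sites, held 0 matches. Matches are descriptions of the sequence only.

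The largest rises in spindle lymph node metastases were in 12 genes of various roles. Gpr149, an orphan G-protein-coupled receptor, was at 7.73, 8.49 and 9.35 in spindle and at 3.70, 3.92 and 5.47 in SCC mice, a rise of 4.25 (SE 0.307, adjusted p = 1.69e-05). Nr2f1, an orphan nuclear receptor of neural crest and mesenchyme, lay at 8.71 to 9.03 in spindle and 4.72 to 6.81 in SCC mice and rose by 3.43 (SE 0.256). Crabp1, a retinoic acid-binding protein, rose by 3.73 (SE 0.812). The tetraspanin Tspan11 rose by 3.34 (SE 0.261), Osr1, a factor of embryonic mesenchyme, by 3.06 (SE 0.527) and the G-protein subunit Gnao1 by 3.23 (SE 0.366).

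The other 6 encode secreted proteins or receptors. Sema3a, a semaphorin that repels axons, rose by 3.26 (SE 0.527) and Ntn1, the guidance ligand netrin-1, by 3.04 (SE 0.345). Dmp1, a phosphoprotein of mineralised matrix, rose by 3.08 (SE 0.437), Itih2, a hyaluronan-binding protein, by 3.04 (SE 0.392), and Adamtsl3 by 3.01 (SE 0.345). Oscar, a collagen receptor, rose by 2.92 (SE 0.523), with overlapping ranges, at 5.58 to 9.37 in spindle and 3.80 to 5.69 in SCC mice. Over all sites 0 of these 12 genes passed, with differences between 1.18 (Ntn1) and 2.14 (Sema3a).

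Mesenchymal genes split. Of 19 genes of the mesenchymal cytoskeleton and adhesion 5 rose and 1 fell, and their median of 0.05 was close to the 0.02 of all genes. S100a4, a calcium-binding protein of motile cells, rose by 2.35 (SE 0.317, adjusted p = 0.000466), from 7.65 to 9.68 in SCC mice to 10.71 to 11.21 in spindle mice. Cdh11, a mesenchymal cadherin, rose by 1.51 (SE 0.351) and the integrin Itgav by 0.83 (SE 0.133). The fibronectin receptor chain Itga5, outside the naming rule, was at 0.80 (SE 0.218, adjusted p = 0.0293), a call not checked with single mice left out. Vim, the intermediate filament of mesenchyme, was high in both, at 12.71 to 12.87 in spindle and 11.74 to 12.64 in SCC mice. Its difference was 0.45 (SE 0.135, adjusted p = 0.0460), a call lost without any 1 of 10 mice, at most to an adjusted p of 0.131, and it was named after its values had been seen. Des, the muscle filament desmin, was at -2.11 (SE 0.540, adjusted p = 0.0215) and lost its call without mice 1706, 1815, 1949 or 1984. Skeletal muscle markers had a median of -0.80 and 0 of 11 passed, with the highest array, at 10.8, from SCC mouse 1456, and their part in the value of Des was not tested.

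Of 23 collagen and fibrillar matrix genes 3 rose and 2 fell (median 0.36). Mgp, the matrix Gla protein, rose by 2.03 (SE 0.366) and the collagen VI chain Col6a3 by 1.68 (SE 0.317), while Fbln1, a fibulin, fell by 1.77 (SE 0.279). Col5a1 rose by 0.89 (SE 0.215), a call lost without mouse 1949 (adjusted p = 0.0520). Fmod fell by 2.00 (SE 0.562, adjusted p = 0.0350), a call lost without any 1 of 8 mice. Among 13 matrix proteases and inhibitors 3 rose and 0 fell: the membrane protease Mmp14 (0.66, SE 0.121), the inhibitor Timp3 (1.47, SE 0.258) and Timp2 (0.70, SE 0.189), the last lost without any 1 of 5 mice. Of 10 fibroblast markers 1 passed, a share near the 11.8% called over all genes: Pcolce, a collagen-processing enhancer, which rose by 1.01 (SE 0.139). The mean level of that list was 7.62 to 9.40 in spindle and 6.81 to 9.43 in SCC lymph node arrays, and its part in the matrix genes was not tested.

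Among other receptor kinases and their ligands, 5 of 24 genes rose and 2 fell. Pdgfra, the receptor for platelet-derived growth factor on mesenchymal cells, was at 10.99, 11.35 and 11.58 in spindle and at 8.31, 9.15 and 9.90 in SCC mice and rose by 2.11 (SE 0.210, adjusted p = 8.41e-05). Ddr2, a receptor for fibrillar collagen, rose by 1.90 (SE 0.272). Fgfr2, the fibroblast growth factor receptor of keratinocytes, fell by 3.21 (SE 0.350, adjusted p = 0.000121), from 6.10 to 9.28 in SCC mice to 4.58 to 5.93 in spindle mice. Epha1 fell by 2.80 (SE 0.471). Fgfr1, another receptor for fibroblast growth factors, rose by 1.39 (SE 0.264) and the receptor Axl by 0.89 (SE 0.132), both outside the naming rule and chosen after their values were seen. Hgf, a ligand of the receptor Met, was at 1.41 (SE 0.430, adjusted p = 0.0497), a call lost without any 1 of 12 mice.

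In the EGF receptor family 3 of 11 genes fell and 2 passed as higher. Tgfa, an autocrine ligand of keratinocytes, was at 4.98, 5.45 and 6.04 in spindle and at 7.10, 9.73 and 10.36 in SCC mice and fell by 3.90 (SE 0.424, adjusted p = 0.000121). The receptor Erbb3 fell by 3.23 (SE 0.478). The ligand Nrg1 fell by 1.58 (SE 0.369), a call lost without mouse 1949 (adjusted p = 0.0531). The ligand Btc, at 1.19 (SE 0.325), and the receptor inhibitor Errfi1, at 0.49 (SE 0.146), lost their calls without any 1 of 4 and of 12 mice.

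Of the 4 measured Ras genes, Mras, the Ras relative that activates a phosphatase of the Raf kinases, rose by 1.57 (SE 0.207, adjusted p = 0.000397). It was at 9.01, 9.10 and 9.46 in spindle and 6.81, 7.76 and 8.02 in SCC mice. Nras was at 0.06 (SE 0.129, adjusted p = 0.843), Rras at 0.35 (SE 0.114, adjusted p = 0.0646) and Rras2 at -0.21 (SE 0.153, adjusted p = 0.452). Among 18 feedback genes and targets of the MAP kinase pathway 4 rose and 0 fell (median 0.37). The Ets factor Etv1 rose by 2.00 (SE 0.273) and the pathway inhibitor Spry4 by 1.93 (SE 0.248), and Etv5, outside the naming rule, by 0.71 (SE 0.127). Hmga2, a chromatin protein of embryonic and tumour cells, was at 1.46 (SE 0.437, adjusted p = 0.0457), a call lost without any 1 of 11 mice.

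Several Notch genes were lower. Of 15 members 7 fell and 1 rose, with a median of -0.99. The receptor Notch3 was at 5.66, 6.54 and 6.67 in spindle and 6.93, 8.63 and 9.08 in SCC mice and fell by 1.86 (SE 0.224, adjusted p = 0.000209). The ligand Jag2 fell by 2.70 (SE 0.534), and the ligand Jag1 by 1.43 (SE 0.357), the latter call lost without mice 1616, 1815, 1949 or 1984. Rbpj, the DNA-binding partner of the receptors, was at 0.75 (SE 0.216, adjusted p = 0.0376), a call lost without any 1 of 7 mice.

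Of 22 Wnt genes 2 fell and 1 rose, a share near the 11.8% called over all genes, among them the ligand Wnt4, which fell by 2.27 (SE 0.493). The receptors Fzd6, at -1.53 (SE 0.424), and Fzd2, at 1.32 (SE 0.353), lost their calls without any 1 of 7 and of 3 mice. Of 23 genes of TGF-beta and activin signalling 4 rose and 2 fell. Ltbp1, which stores latent TGF-beta in matrix, was at 10.08 to 11.31 in spindle and 6.63 to 9.60 in SCC mice and rose by 2.36 (SE 0.450, adjusted p = 0.00414). The activin subunit Inhbb fell by 1.19 (SE 0.258). The co-receptor Tgfbr3, outside the naming rule, was at 1.17 (SE 0.314, adjusted p = 0.0276), a call not checked with single mice left out. The antagonist Grem1 was at 2.39 (SE 0.723, adjusted p = 0.0486), Bmp2 at 2.23 (SE 0.637, adjusted p = 0.0367) and Bmp7 at -2.76 (SE 0.762, adjusted p = 0.0320), calls lost without any 1 of 11, 8 and 7 mice.

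Of 23 cell cycle genes 2 rose, a share near that over all genes (7.55% higher): the S-phase transcription factor E2f1 (1.08, SE 0.174, adjusted p = 0.00138) and the cyclin Ccnb2 (0.78, SE 0.179, adjusted p = 0.0121). The list median was 0.45 and 20 of 23 differences were positive, beside 10181 of 18772 over all genes. Of 9 tumour suppressors and cell cycle inhibitors 2 rose, beside 7.55% over all genes: the inhibitor Cdkn2c (1.48, SE 0.216) and the Ras GTPase-activating gene Nf1 (0.70, SE 0.141). Differences in this list were positive in 4 and negative in 5 genes, with a median of -0.26. Among 12 squamous and stem cell factors 1 fell and 1 rose, beside 11.8% called over all genes. Cd44, the hyaluronan receptor, fell by 2.06 (SE 0.281), from 9.57 to 11.77 in SCC mice to 8.68 to 9.24 in spindle mice. The polycomb gene Bmi1 rose by 0.60 (SE 0.136).

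In the interferon list 1 of 14 passed, Oasl1, which fell by 1.53 (SE 0.384), a call lost without mouse 1949 (adjusted p = 0.0715). In the hypoxia and glycolysis list 1 of 13 passed, Ndrg1, at -1.12 (SE 0.282), a call lost without mice 1616, 1949 or 1984. The shares called in the interferon and the hypoxia and glycolysis lists were under the 11.8% called over all genes. Of 12 genes of antigen presentation 0 passed, and the widest differences were -0.83 for Nlrc5 (adjusted p = 0.242) and -0.68 for Tap1 (adjusted p = 0.184). Endothelial markers fell in 3 of 10 cases (median -0.92), with the sialomucin Emcn falling by 1.26 (SE 0.214) and Plvap at -1.12 (SE 0.303), a call lost without any 1 of 5 mice. The third was Esam, outside the naming rule (-0.97, SE 0.270), a call not checked with single mice left out. The mean of that list was 7.22 to 8.77 in spindle and 7.37 to 9.19 in SCC lymph node arrays.

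Transcripts of 2 neutrophil receptors were lower in spindle lymph node metastases. The chemokine receptor Cxcr2 was at 5.21, 6.90 and 7.73 in spindle and at 8.62, 10.56 and 11.40 in SCC mice and fell by 3.66 (SE 0.524, adjusted p = 0.000655), and the growth factor receptor Csf3r fell by 1.97 (SE 0.332). Of 8 markers 2 fell and 0 rose (median -1.30), and the list mean was 5.22 to 8.26 in spindle and 6.85 to 9.45 in SCC arrays. T and NK cell, B cell, plasma cell and macrophage markers had medians of -0.32, -0.61, -0.70 and 0.28, with 0 called. B-cell markers reached 8.95 in a spindle array of mouse 1815 and 10.3 in an SCC array of mouse 1706, and the part of nodal tissue in the comparison was not tested. Among other marker lists the melanocyte factor Mitf was at 0.85 (SE 0.229), and the sebocyte hydroxylase Fa2h fell by 1.16 (SE 0.272). Hdc, the histamine enzyme of mast cells, fell by 1.46 (SE 0.353), and Foxn1, shared by thymus and epidermis, was at -0.70 (SE 0.209). Hdc went against its list, in which 6 of 8 mast cell markers had positive and 2 negative differences (median 0.86). Medians of the melanocyte, sebocyte and thymus lists were 0.05, -0.19 and 0.02. The calls of Mitf and Foxn1 were lost without any 1 of 5 and of 10 mice.

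**Figure D4:**
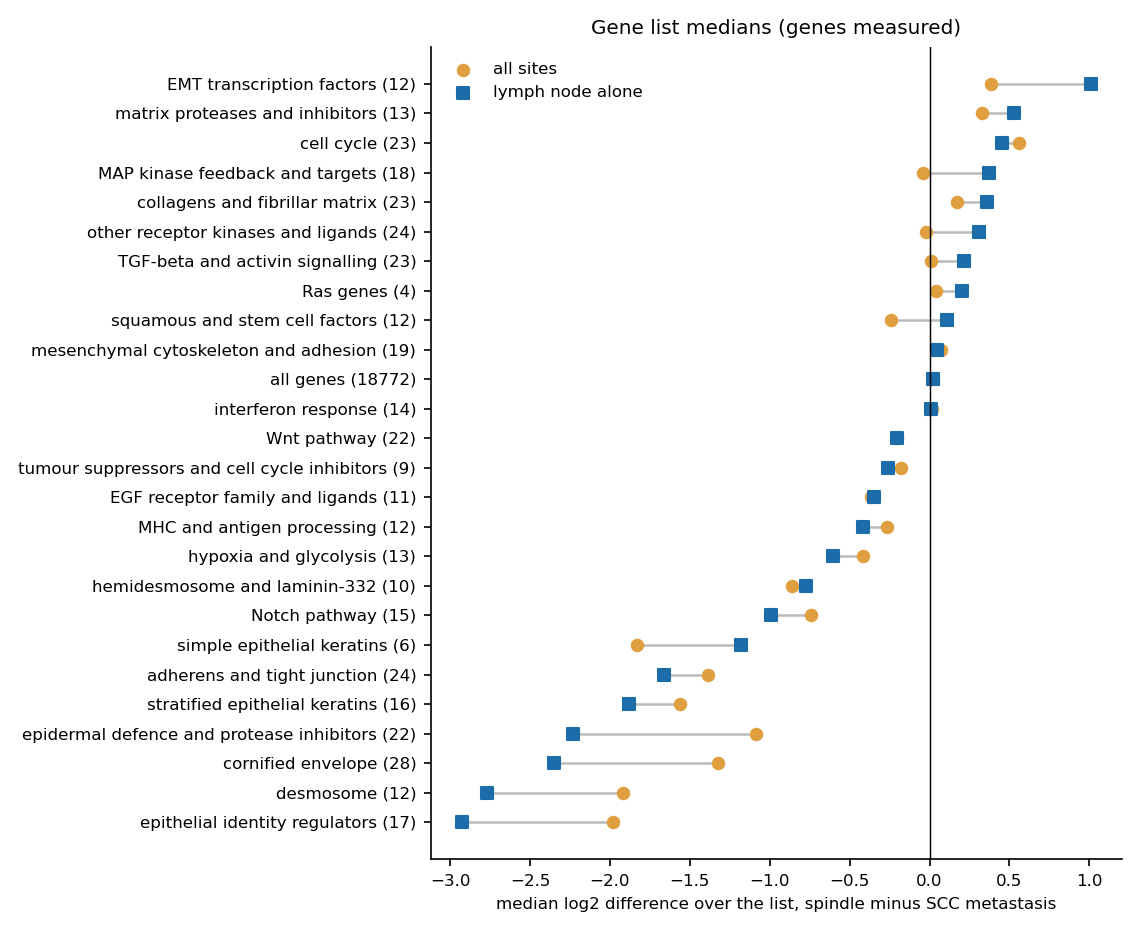
Median log2 difference, spindle minus SCC metastasis, of each pathway list and of all genes, over all sites (circles) and in lymph node alone (squares), with the number of genes measured in brackets. The epithelial identity regulators moved from -1.98 over all sites to -2.92 in lymph node, while all genes stayed at 0.02.

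With the 7 arrays below the carcinoma midpoint left out, the differences were wider. Esrp1 was at -5.78 over all sites, against -3.72 with all arrays, and at -6.04 against -5.20 in lymph node. Cdh1 was at -3.37 against -2.39 over all sites and at -3.47 against -3.06 in lymph node. Zeb1, Pdgfra and Nr2f1 were not among the regulators used to find those arrays, but they were measured on the same arrays and are no independent check. Their all-site values were 1.74 against 0.96 (Zeb1), 1.69 against 1.00 (Pdgfra) and 2.98 against 1.83 (Nr2f1). In lymph node they were at 1.93 against 1.63, 2.24 against 2.11 and 3.53 against 3.43. With these arrays out, only mouse 1984 had both histologies, and the all-site fit carried no mouse term.

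Histologies were also compared within each genotype, in a fit of 4 groups with 1 shared spread. In WT mice (3 spindle and 8 SCC) 110 genes were higher (0.586%) and 195 lower (1.04%), or 1.62% in all, and in HrasKO mice (4 and 3) 0 were higher and 5 lower (0.0266%). The HrasKO minus WT difference of this contrast passed in 0 genes by limma (0% of those tested), with 1512 at an unadjusted p under 0.05 and a smallest adjusted p of 0.0943. Mouse 1949 gave a WT SCC array low in epithelial genes and also 4 WT spindle arrays. Without this mouse, and so without both of its profiles, 204 genes passed the test of the HrasKO minus WT difference. The WT count was 1164 without mouse 1949 and 3 without mouse 1984. It was 9 in batch 1 alone, as the labels name the batches. Batch 2 held WT mouse 1456 and HrasKO mouse 1664. The WT count was 52 without mouse 1456 alone and 82 without mouse 1664 alone.

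In WT mice 11 of the 17 epithelial identity regulators were lower, with a median of -2.71. In HrasKO mice 0 were, with a median of -0.59. Esrp1 had a difference of -4.63 in WT (adjusted p = 0.0357) and of -2.46 in HrasKO mice (adjusted p = 0.545). Desmosome genes had medians of -3.16 and -0.46, and stratified keratins of -2.33 and -0.10. In the lists of interferon response and antigen presentation the sign differed, at 0.59 and 0.03 in WT and at -0.79 and -0.58 in HrasKO mice, with 0 members passing in either. B-cell markers had medians of 0.31 in WT and -1.62 in HrasKO mice. The SCC group of the HrasKO mice was 3 mice, with 5 of 6 arrays below the carcinoma midpoint, so the part of that level in the genotype difference was not tested.

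The 5 genes with the smallest p in the genotype difference were Cadm3, Pde11a, Klf5, Dsp and Sv2a. Dsp was at 5.73 ± 0.760 (SD, n = 3) in spindle and 11.48 ± 0.890 (n = 8) in SCC metastases of WT mice, and at 7.29 ± 0.586 (n = 4) and 8.28 ± 1.24 (n = 3) in HrasKO mice. The difference between the contrasts was 4.65 (SE 0.815, adjusted p = 0.153). For Klf5, a factor of basal keratinocytes, it was 3.32 (SE 0.573, adjusted p = 0.153). Cadm3, a neural adhesion molecule, was at 7.52 ± 0.172 in the 3 HrasKO SCC mice and at 6.04 to 6.24 on average in the other groups, a difference of -1.58 (SE 0.242, adjusted p = 0.0943). The phosphodiesterase Pde11a was at -1.09 (SE 0.173, adjusted p = 0.0943) and the synaptic vesicle gene Sv2a at -1.02 (SE 0.193, adjusted p = 0.266). The genes called in HrasKO mice, named after their values had been seen, were Cadm3 (-1.45), Pde11a (-0.93), Slc24a3 (-1.61), Cd209c (-1.76) and Bpifb5 (-1.34). All 5 were lost as calls without mouse 1407, 1537, 1616 or 1664. No minimum level was asked of the genes in this paragraph, and several were low. Means in HrasKO spindle and SCC mice were 4.97 and 5.89 for Pde11a, 5.50 and 7.09 for Slc24a3, 4.62 and 6.36 for Cd209c and 4.57 and 5.86 for Bpifb5. Sv2a had group means of 4.69 to 5.34. Array medians in the series were 5.89 to 6.36.

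**Figure D5:**
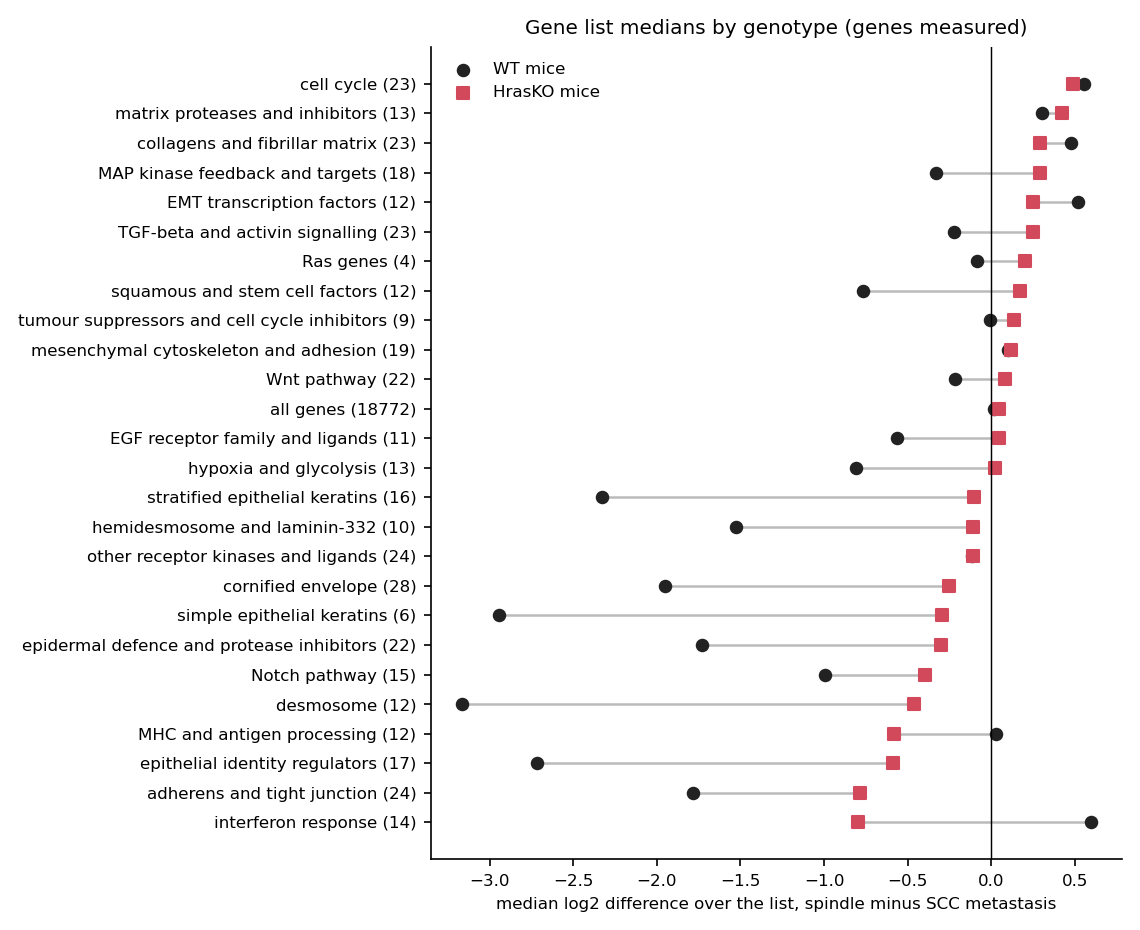
Median log2 difference, spindle minus SCC metastasis, of each pathway list and of all genes, within WT mice (circles, 3 spindle and 8 SCC) and within HrasKO mice (squares, 4 and 3). Epithelial lists lie further from 0 in WT than in HrasKO mice, as for the desmosome at -3.16 and -0.46; the difference between list medians was not tested.

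The contrast between the histologies was then set against the same contrast in primary carcinomas (10 spindle and 8 SCC mouse means). The fit held genotype as a covariate and mouse as a random block over the 36 profiles. All SCC carcinomas came from WT mice, while spindle carcinomas came from both genotypes. The carcinoma contrast can therefore not be seen within HrasKO mice, whereas the metastasis contrast held both genotypes on both sides. The difference between these contrasts passed in 0 genes by limma (0% of those tested), with 1814 at an unadjusted p under 0.05 and a smallest adjusted p of 0.0565. The smallest p values were those of Aadacl2, Defb4, Defb3, Blmh and Glo1. Defb4, a beta-defensin of inflamed epidermis, was at 9.61 ± 2.05 (n = 8) in SCC carcinomas but at 4.59 ± 1.53 (n = 11) in SCC metastases, beside 4.01 ± 0.951 in spindle carcinomas and 3.67 ± 0.0835 in spindle metastases. The contrast was smaller in metastases by 4.56 (SE 0.870, adjusted p = 0.0565). Defb3 had the same pattern, at 9.48 ± 1.65 and 5.18 ± 1.42 in SCC carcinomas and metastases.

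Aadacl2, an esterase-like gene of keratinocytes, was at 8.06 ± 1.38 in SCC carcinomas and 3.83 ± 0.506 in SCC metastases, and its difference was 3.49 (SE 0.646, adjusted p = 0.0565). For Blmh, a protease that degrades filaggrin, it was 1.45 (SE 0.287, adjusted p = 0.0594), and for the glyoxalase Glo1 0.78 (SE 0.157, adjusted p = 0.0594). In each of these genes the SCC metastases lay close to both spindle groups and below the SCC carcinomas. Site, which exists for metastases alone, and tumour type cannot be told apart here.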

How the data were processed

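RNA of 112 tissue samples was measured on Affymetrix arrays. The authors deposited log2 intensities made with RMA, per the submitters' processing notes; neither its version nor any batch correction is given in the sources used here. RMA values have no detection call, and low values have no true zero. Of 28204 probe sets, 21141 had 1 gene symbol in the platform annotation, 1881 several and 5182 none. The probe set with the highest mean stood for a gene, which left 18772 genes, without a filter on low values.

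Arrays were averaged per mouse and histology, giving 7 spindle and 11 SCC metastasis profiles. The profiles entered limma (version 3.58.1, R 4.3.3) with genotype as a covariate and mouse as a random block (correlation 0.256), since 3 mice gave both histologies. Replicates were mice; labels pair samples through the mouse. The scripts were tested on simulated data. Genes named were the 12 largest rises and falls among called genes whose higher group averaged 6 or more, up to 3 rises and 3 falls per pathway list, all EMT factors, epithelial regulators and Ras genes, up to 2 called genes per marker list, and the 5 smallest p of each difference of contrasts. Members and lists were chosen with earlier results of these data known, and the lymph node comparison became a result after the all-site count was seen. The alternatives changed the mouse term, covariates, batch, site, probe sets, filter, variance model and normalization, and left out each mouse. Hras was not analysed here.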

Additional observations from a re-analysis of the deposited data

Results flagged for a closer look

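In groups of 6 to 8 mice, 70 of 360 group and gene pairs held a highest or lowest mouse whose gap to its neighbour was larger than Dixon's 95% critical value allows. Chance gives about 1 in 20 groups. Genes that share a mouse are not independent, and most of these values came from 1 mouse.

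HrasKO mouse 1706 was the low SCC mouse in lymph node for 40 genes, with its log2 mean and that of the next mouse given for each. Keratinocyte structural genes were Cdh1 (8.81, next 10.6), Cldn4 (6.96, next 9.78), Col17a1 (6.68, next 9.66), Dmkn (6.59, next 10.1), Dsc3 (8.19, next 10.2), Dsg3 (5.7, next 11), Dsp (7.08, next 11.5), Epcam (6.49, next 8.95), Krt14 (8.48, next 12.2), Krt18 (8.27, next 10.3), Krt5 (9.12, next 12.3), Krt6a (6.28, next 10.4), Krt6b (5.16, next 11.2), Lama3 (6.75, next 9.27), Lamb3 (8.07, next 10.1), Lypd3 (7.17, next 11.2), Serpinb5 (6.74, next 10.9), Sprr1a (8.55, next 11.3), Trim29 (7.69, next 11.5). The regulators, receptors, ligands and other genes were Cd44 (9.57, next 11), Ehf (6.26, next 9), Epha1 (5.76, next 8.28), Erbb3 (6.16, next 8.45), Esrp1 (5.99, next 9.94), Esrp2 (5.61, next 8.48), Fgfr2 (6.1, next 8.51), Fzd6 (6.84, next 8.85), Grhl2 (5.33, next 8.25), Grhl3 (5.51, next 8.44), Jag1 (8.53, next 10.1), Jag2 (6.74, next 9.22), Klf5 (8.08, next 10.2), Mir205 (4.12, next 5.75), Notch3 (6.93, next 8.24), Ovol1 (4.46, next 7.08), Rab25 (6.41, next 10.2), Snai2 (7.68, next 9.45), Tfap2a (6.6, next 8.98), Tgfa (7.1, next 9.14), Trp63 (6.85, next 10.1). The same mouse was high for Dmp1 (6.01, next 4.99). All 3 of its arrays lay below the carcinoma midpoint of the epithelial regulators.

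Over all sites HrasKO mouse 1537 was the high spindle mouse for 11 genes: Bmp7 (6.25, next 4.97), Cdkn2b (9.04, next 6.39), Cldn4 (7.68, next 5.58), Col17a1 (6.62, next 5.33), Dsg3 (4.8, next 4.08), Elf3 (6.05, next 4.67), Esrp1 (6.73, next 5.02), Grhl2 (5.83, next 4.71), Krt7 (8.1, next 5.67), Rab25 (7.23, next 5.9), Serpinb5 (5.94, next 4.35). Its lung array had Esrp1 at 8.75 and a lung marker mean of 10.7, the highest of the metastasis arrays, against 4.44 in its lymph node array; the part of lung tissue in these values was not tested. Mouse 1984 was high for Abhd8 (7.8, next 7.27), Dkk2 (11.4, next 7.47), and mouse 1509, whose array is from lung, was high for Ciita (9.53, next 7.36) and low for Rnf26 (8.43, next 8.72). The array of mouse 1509 had B-cell markers at 9.91 and lung markers at 6.91, and their part in these values was not tested.

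Among spindle lymph node mice, 1984 was low for Dmkn (4.14, next 4.52), Krt8 (5.95, next 11.5). Mouse 1407 was high for E2f1 (9.13, next 8.76), Lama3 (7.97, next 6.29), mouse 1664 was high for Erbb3 (5.99, next 5.42), Mras (9.46, next 9.17) and low for Cdh11 (9.54, next 10.7), and mouse 1537 was high for Elf3 (4.93, next 4.28), Nras (9.74, next 9.45), Ovol2 (5.29, next 5.02) and low for Notch3 (5.66, next 6.48). In SCC lymph node mice 1508 was high for Itih2 (5.42, next 5.06), Nr2f1 (6.81, next 5.67), Oscar (5.69, next 4.52).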

How the results depend on the processing

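The all-site count of 13 genes depended on the processing. Without the replicate block for mouse, with a fixed replicate block, with mice of 1 histology, with batch as a covariate, in batch 1 alone, or with a trended robust variance it was 0. It was 611 without the genotype covariate, 421 with the filter on low values, 190 with repeated quantile normalization, 789 with site class as a covariate, 1705 without lung, 2213 in lymph node alone, 1951 over individual arrays and 1529 without the arrays against their label. The share of higher calls also moved, from 8 of 13 to 675 of 1529 in the last. Leaving out 1 mouse gave 0 to 412 calls. The lymph node count stayed within 1.5 times of 2213 under its alternatives, all chosen after seeing the data, except without mouse 1949 (1386). Calls were 1209 higher and 975 lower without the arrays of mouse 1706. Leaving out 1 mouse gave 1386 to 2237.

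The WT count of 305 was 1866 over individual arrays, 9 in batch 1 alone, 1676 in lymph node and 557 with the filter, and 3 to 1164 with 1 mouse left out. The HrasKO count of 5 was 23, 2, 97 and 2 in the same settings, 3 without the replicate block, 0 with repeated quantile normalization, and 0 to 28 with 1 mouse left out. The genotype difference of 0 was 38 over individual arrays and 0 to 204 with 1 mouse left out. The metastasis minus carcinoma difference of 0 was 224 over individual arrays. The cause was not tested. In the all-site and lymph node comparisons no called difference of a gene named by rule changed sign under the alternatives run. Signs of single genes were not checked in this way for the other comparisons. Calls of Itga5, Tgfbr3, Esam, Fgfr1, Axl and Etv5, outside the naming rule, were not checked under the alternatives. Individual arrays of a mouse are not independent, and the number of mice limits all counts.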
